A study of Bos taurus with 4 samples.

Results

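In bovine embryonic stem cells (bESCs), an H3K27me3 domain of more than 100 kb lay on chromosome 4 where the study draws the HOXA genes. The peaks described here are all those listed in a 1.2 Mb window around it, which reached 527.4 kb beyond the bases common to both domain peaks on the low side and 558.8 kb on the high side, on the ARS-UCD1.2 assembly. They come from 4 CUT&RUN libraries, a pair for H3K4me3 and a pair for H3K27me3. They numbered 81 of the 95708 peaks of the 4 lists, which held 26048 and 23986 peaks for H3K4me3 and 24430 and 21244 for H3K27me3 in replicates 1 and 2. H3K4me3 had 37 of them in replicate 1 and 34 in replicate 2, and H3K27me3 had 4 in replicate 1 and 6 in replicate 2. In CUT&RUN, an antibody brings a nuclease to the chromatin that carries a histone mark, and the fragments cut free are sequenced. Each library came from about 50000 NBFR-bESCs, grown on mouse feeder cells in N2B27 medium that held IWR-1, an inhibitor of the Wnt pathway, at 2.5 µM, FGF2 at 20 ng/mL and BSA at 1%, and depleted of feeders with magnetic beads. The labels give 1 line, derived from a female blastocyst of day 7. A figure legend of the study instead gives 2 independent lines for CUT&RUN of both marks, and which replicate came from which is not stated. The labelled cell type was not checked against marker genes here, because peaks were not assigned to genes.

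HOXA genes encode homeodomain transcription factors that give cells along the body axis their regional identity. They stand in a row on the chromosome in the order in which they are used, with genes of anterior regions at one end and genes of posterior regions at the other. In pluripotent cells such clusters are a classical target of Polycomb repressive complex 2, whose catalytic subunit trimethylates lysine 27 of histone H3. H3K4me3 is laid down at promoters by Trithorax-type complexes, and promoters that carry both marks are called bivalent. In a RefSeq gene table of the later ARS-UCD2.0 assembly, 11 HOXA genes stand together on chromosome 4. By the position of their ends, the order from low to high coordinates began with HOXA13, HOXA11 and HOXA10, went on with HOXA9, HOXA7, HOXA6, HOXA5, HOXA4 and HOXA3, and then reached HOXA2 towards the other end. HOXA9 belongs to the posterior group and HOXA2, which patterns the hindbrain and the second branchial arch, to the anterior group. EVX1, a homeobox gene, stood on the side of HOXA13, and SKAP2, which encodes an adaptor protein, and SNX10, which encodes a sorting nexin, on the other side. This order was used for names only, and whether the cluster has the same orientation in both assemblies was not checked here. Below, the low side is the side of low coordinates, where HOXA13 stands in that table, and the high side that of high coordinates, where HOXA2 stands in it, and no single peak is assigned to a gene.

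The H3K27me3 domain lay at chr4:68827401-68941200 in replicate 1 and at chr4:68817801-68946200 in replicate 2, with widths of 113.8 kb and 128.4 kb. The replicate 1 peak lay wholly within that of replicate 2, which reached 9.6 kb further on the low side and 5 kb further on the high side. Bases in both peaks made up 88.6% of the bases spanned by either. The difference between the lists was therefore small against the width of the domain. For comparison, wide domains were taken as the 83 overlaps between autosomal H3K27me3 peaks of at least 100 kb of both replicates. The overlap itself was shorter than 100 kb in 7 of them, down to 8.2 kb, and 12 shared a peak with another overlap, so that they are not separate. Among the 71 without a shared peak, the HOXA domain ranked 24 in the share of its span common to both lists, and the median of the other 70 was 81.3%. Of the 140 edges of those 70, 7 had the same position in both lists, and the median shift was 4.4 kb. Replicate 2 gave the wider peak in 47 of the 70, as it did at HOXA. The low edge of the HOXA domain thus moved further between the libraries than the median edge, and the high edge about as far. Over all 83 overlaps the median shift of the other edges was 7.8 kb.

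**Figure D1:**
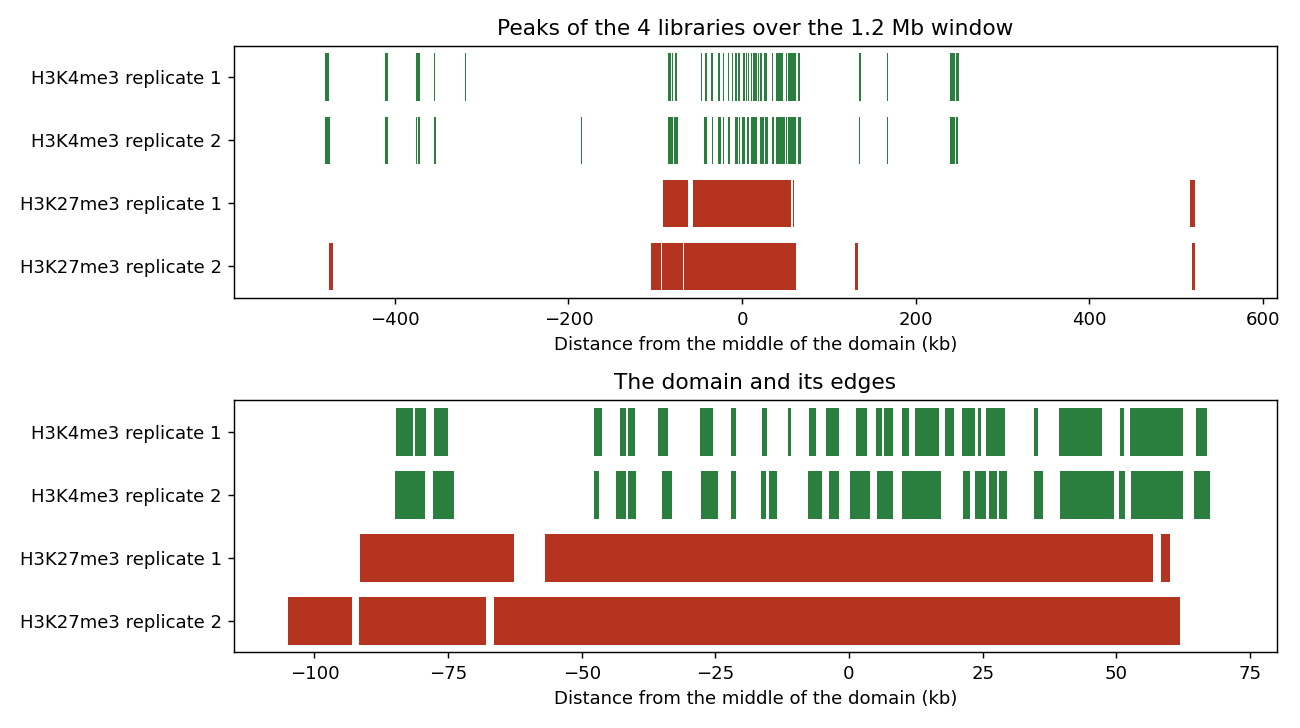
Positions of all peaks in the 1.2 Mb window (top) and around the domain (bottom), as distance in kb from the middle of the bases common to both domain peaks. Each row is a library and each block a peak; the H3K4me3 blocks crowd over the H3K27me3 domain, and the strip on its left is the separate H3K27me3 peak on the low side.

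On the low side, the domain was accompanied by a second H3K27me3 peak. It lay at chr4:68792801-68821600 in replicate 1, with a width of 28.8 kb, and at chr4:68792601-68816400 in replicate 2, with a width of 23.8 kb. The stretch without H3K27me3 between it and the domain was 5.8 kb in replicate 1 and 1.4 kb in replicate 2. These stretches did not overlap, and the replicate 1 peak reached into the domain of replicate 2, so the break between both peaks had no common position. No H3K4me3 peak was listed in either stretch. In replicate 2 alone, another H3K27me3 peak of 12 kb followed at chr4:68779401-68791400. On the high side, replicate 1 had an additional H3K27me3 peak of 1.8 kb, at chr4:68942601-68944400, which the domain of replicate 2 covered. With H3K27me3 peaks less than 10 kb apart joined, the block spanned chr4:68792801-68944400 in replicate 1 and chr4:68779401-68946200 in replicate 2, or 151.6 kb and 166.8 kb. H3K27me3 peaks filled 95.3% and 98.4% of these spans.

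Beyond this block, H3K27me3 was sparse. In replicate 1 no H3K27me3 peak was listed for 1038.6 kb on the low side and 456.6 kb on the high side. In replicate 2 these distances were 366.2 kb and 68.6 kb, and they ended at the peaks of 4.8 kb at chr4:68408401-68413200 (score 183) and of 3 kb at chr4:69014801-69017800 (score 112). Both of these peaks scored below the list median of 315 and were not listed in replicate 1. The only H3K27me3 peak of the window outside the block that was found in both libraries lay at chr4:69401001-69406200 in replicate 1 and chr4:69402601-69406400 in replicate 2. All 4 H3K27me3 peaks of replicate 1 in the window had a counterpart in replicate 2, while replicate 1 held a counterpart for 3 of the 6 in replicate 2, against 87.7% and 82.4% of autosomal H3K27me3 peaks in the respective lists. Within 500 kb on each side of the bases common to both domain peaks, H3K27me3 peaks of both replicates covered 3.28%. This was the lowest value of the 83 overlaps, whose other members ranged from 4.92% to 86.5% with a median of 41.4%. The HOXA domain was also lowest within 1000 kb, at 2.15%, and in each replicate alone. Within 100 kb, where the second peak on the low side weighs more, it ranked 5 from the lowest, at 14.6%. The domain was thus a wide block in a stretch with few other H3K27me3 peaks, and each of the other 82 overlaps had more H3K27me3 within 500 kb. These ranks describe a single domain and carry no test.

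The domain was picked as one of more than 100 kb. A high rank in width was therefore set by this choice, as largely was one in score, which grows with width. The ranks below are a description only. In width, the HOXA domain ranked 61 of 15943 autosomal H3K27me3 peaks in replicate 1 and 85 of 15017 in replicate 2. It was 16.7 and 17.4 times as wide as the median autosomal peak, while the widest autosomal peak reached 273.6 kb and 464.8 kb. On chromosome 4 it was second in width in both lists. The authors' score of each peak, a whole number that is not named in the lists and is compared only within a list, was 10757 in replicate 1 and 15935 in replicate 2. By score the domain ranked 27 and 40 among autosomal peaks, higher than by width. Scores grow with width, so the score was also divided by the number of 200 bp windows of the peak. This gave 18.9 and 24.8 per window at HOXA, against medians of 12.9 and 16.5 over the 100 and 155 autosomal peaks of at least 100 kb. Among these the HOXA domain ranked 8 and 10. It therefore stood among the wide domains with much score for their width, although among all autosomal peaks, narrow ones included, its score per window ranked 120 and 172.

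**Figure D2:**
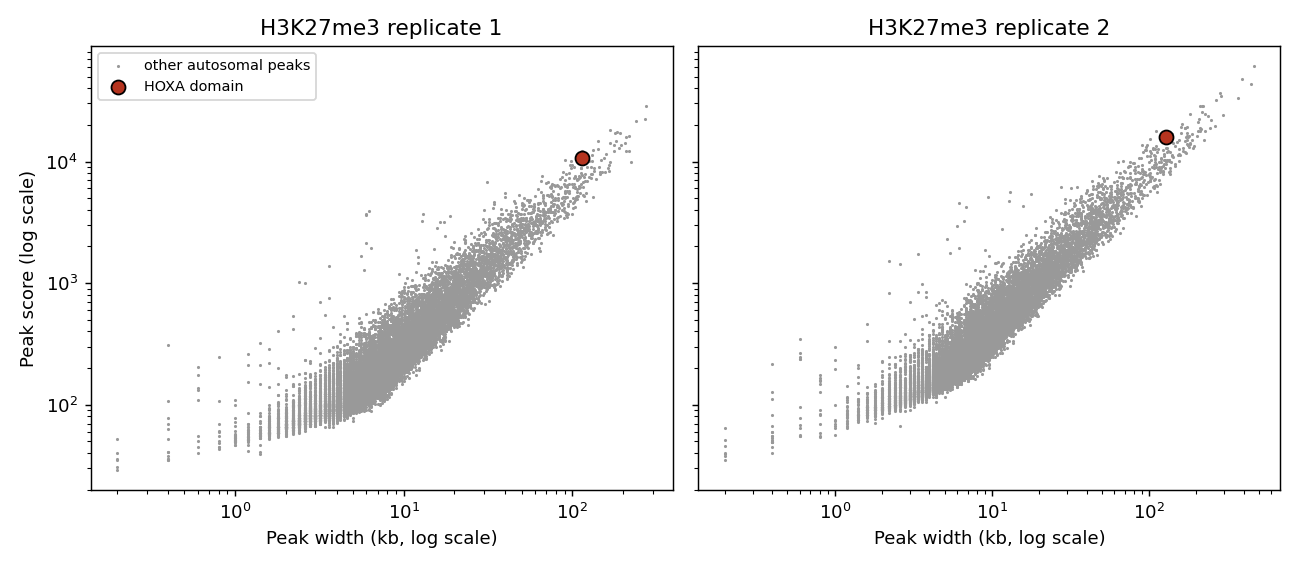
Score against width (kb) of every autosomal H3K27me3 peak in each replicate, both on log scales, with the HOXA domain marked. Score rises with width, and the HOXA domain sits at the upper right, towards the upper side of the cloud, with 113.8 kb and a score of 10757 in replicate 1 and 128.4 kb and 15935 in replicate 2.

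H3K4me3 was found along the whole domain except its low end. In replicate 1, 23 H3K4me3 peaks overlapped the domain, with 22 wholly inside and 1 across the high edge, and in replicate 2 there were 21, with 20 inside and 1 across the same edge. Of these peaks, 21 of 23 and 20 of 21 overlapped a peak of the other replicate, against 82.9% and 89.6% of autosomal H3K4me3 peaks. The peaks without a counterpart were those at chr4:68872801-68873400 (score 32) and chr4:68902201-68904000 (score 64) in replicate 1 and at chr4:68869401-68870800 (score 67) in replicate 2. When shared peaks of both replicates were merged, 17 regions overlapped the bases common to both domain peaks, and they were between 1 and 10.2 kb wide. In replicates 1 and 2, H3K4me3 peaks covered 41.5% and 46.6% of the domain in the H3K27me3 list of the same replicate number. Bases under H3K4me3 in both libraries made up 35.3% of the common domain, against 6.16% of all autosomal bases under H3K27me3 in both.

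This density set the HOXA domain apart in rank from the other wide domains. It ranked first of the 83 overlaps of peaks of at least 100 kb for the share of bases under H3K4me3. The next highest value was 11.9%, the median of the other 82 was 0.720%, and 36 of them had no base under H3K4me3 in both libraries. Among the 76 overlaps that were themselves at least 100 kb long it ranked first too, with a median of 0.854% over the other 75, of which 31 were at 0. With 14.9 shared H3K4me3 regions per 100 kb it also ranked first by number, the next value being 6.62. With the H3K4me3 and H3K27me3 lists of a single replicate number it ranked first as well. This was of 100 domains in replicate 1 and 155 in replicate 2, where the next values were 15.8% and 23.3%. Leaving out the outer 10 kb at each edge gave 36.2% at HOXA and 11.2% at the highest other domain. When overlaps of peaks of at least 50 kb were compared, HOXA was second of 380. The first was a narrower domain of 51.6 kb on chromosome 23, chr23:31084401-31136000, of which 82.2% lay under H3K4me3. The third, of 60.2 kb on chromosome 3, had 31.6%, so the wide gap below HOXA held only at the limit of 100 kb. At least 10% of bases lay under H3K4me3 in 30 of the other 379 overlaps, against 1 of the other 82 at 100 kb. A domain of 97.4 kb on chromosome 2, chr2:20742801-20840200, held 17 shared H3K4me3 regions as HOXA did, and more per 100 kb, at 17.5, with 25.9% of its bases under H3K4me3.

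**Figure D3:**
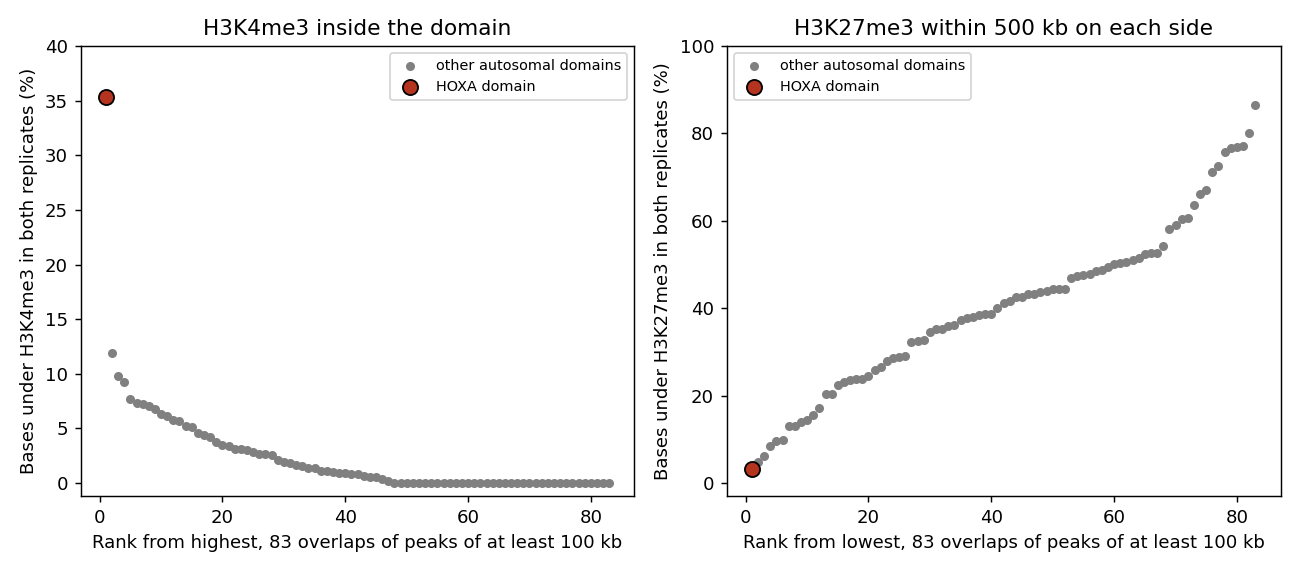
The 83 overlaps between autosomal H3K27me3 peaks of at least 100 kb of both replicates, ordered by their share of bases under H3K4me3 (left, %) and by the share of bases under H3K27me3 within 500 kb on each side (right, %). Each point is an overlap; the HOXA domain is the highest on the left, at 35.3%, and the lowest on the right, at 3.28%.

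Within the domain, H3K4me3 covered more bases towards the high side. HOXA2 stands on that side in the later assembly, whose orientation here was not checked against that of the peaks. With the domain of each replicate divided into 3 equal parts, H3K4me3 covered 23.7% of the low part, 45.5% of the middle part and 55.2% of the high part in replicate 1. In replicate 2 it covered 21.5%, 51.4% and 66.8%. Of the bases under H3K4me3 in both libraries, 71.1% lay on the high side of the middle of the common domain. By the middle of each peak, 10 H3K4me3 peaks lay on the low side and 13 on the high side in replicate 1, and 10 and 11 in replicate 2. The median peak on the low side was 1.3 kb wide in replicate 1 and 1.6 kb in replicate 2, and on the high side 1.8 kb and 2.2 kb. Peaks of the high side were thus both somewhat more numerous and wider, although after merging 9 of the 17 shared regions had their middle on the low side and 8 on the high side. Their median score was 98 and 97 on the high side, against 78.5 and 73 on the low side. Per window of 200 bp, which takes out the width, the medians were 10.9 on the low side and 12.8 on the high side in replicate 1, and 10.3 and 9 in replicate 2. The direction of this difference thus turned between the libraries, and a typical peak of the high side was wider but not higher for its width in both. The order of the 3 parts was the same in both replicates.

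The low side of the domain, up to its middle, held narrow peaks of low score. The first H3K4me3 peak from the low edge started at 68836601 in both replicates, 9.2 kb inside the domain in replicate 1 and 18.8 kb inside it in replicate 2. No longer stretch without H3K4me3 occurred in the domain of either replicate. The 9 shared regions of this side scored 45 to 141 in replicate 1, and in replicate 2 their scores were 38 to 125. None reached the median of its list, which was 186 in replicate 1 and 206 in replicate 2. The highest was the region at chr4:68856401-68859800, with 141 and 125, and 2 neighbouring peaks at chr4:68841401-68842600 and chr4:68843001-68844200 in replicate 1 had 116 and 88. The regions of lowest score, at chr4:68862201-68863200 with scores of 45 and 57 and at chr4:68867801-68869000 with 47 and 38, followed on its high side. The region nearest to the low edge, at chr4:68836601-68838000, and that at chr4:68848601-68851200 had 63 and 69 in replicate 1 and 65 and 59 in replicate 2. These 4 regions were thus well below the median of either list. Per window, 1 of the 10 peaks of this side in replicate 1, at chr4:68841401-68842600 with 19.3, reached the autosomal H3K4me3 median of 18.5, and none of the 10 in replicate 2 reached that of 18.1. Nearer the middle of the domain the peaks at chr4:68876801-68878200 and chr4:68880001-68882400 of replicate 1 had 101 and 134, and their counterparts in replicate 2 had 114 and 99. In the order of the later assembly, HOXA9 and the other posterior genes stand towards this side, but which of these regions belongs to which gene was not determined.

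On the high side of the middle, 4 H3K4me3 peaks of each library scored at or above the median of their list. They made up 4 of the 23 peaks in replicate 1 and 4 of the 21 in replicate 2 that overlapped the domain. Of all autosomal H3K4me3 peaks, 51.9% and 52.0% reached the median, and of those over H3K27me3, 45.3% and 42.0% did, so most H3K4me3 peaks of the domain had low scores in comparison. Per window, 4 of 23 and 1 of 21 reached the autosomal median, against 40.6% and 37.2% of the autosomal H3K4me3 peaks over H3K27me3. The 4 peaks formed 4 shared regions. The first was just past the middle, at chr4:68885601-68887600 in replicate 1 (score 197) and chr4:68884401-68888200 in replicate 2 (score 238). The second lay at chr4:68896601-68901200 in replicate 1 (score 399) and at chr4:68894201-68901600 in replicate 2 (score 517), where replicate 1 had another peak of score 116 at chr4:68894201-68895600. By score, the first of these stood near the median and the second above it. Per window the first had 19.7 in replicate 1 and 12.5 in replicate 2. The wider peak of the second had 17.3 and 14. Against autosomal medians of 18.5 and 18.1, only the first was above, and in replicate 1 alone, so the high score of the second went with its width. The other 2 were wide, with high scores, and they held 52.4% and 51.1% of the summed score of all H3K4me3 peaks that overlapped the domain in replicates 1 and 2.

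**Figure D4:**
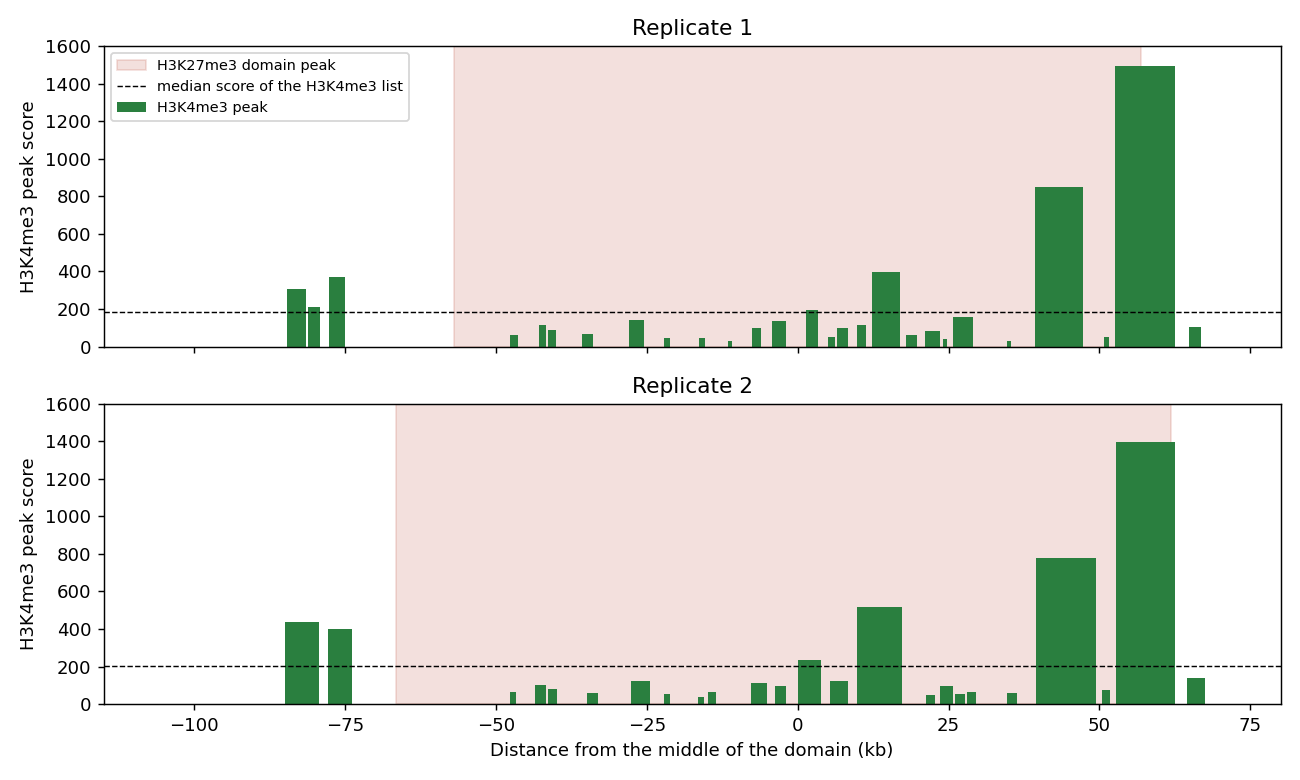
Score of each H3K4me3 peak (vertical axis) against distance from the middle of the domain (kb) in replicate 1 (top) and replicate 2 (bottom). Bars have the width of the peak, the shaded area is the H3K27me3 domain peak, and the dashed line is the median score of the H3K4me3 list (186 and 206); the tallest bars, 1492 and 1396, cross the right edge of the domain.

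The region before the last lay wholly inside the domain. Its H3K4me3 peak spanned chr4:68923601-68931600 in replicate 1, with a width of 8 kb and a score of 847, and chr4:68923801-68933800 in replicate 2, with 10 kb and 778. Per window its score was 21.2 in replicate 1, above the autosomal median of 18.5, and 15.6 in replicate 2, below that of 18.1, so in replicate 2 its high score went with its width. By score it ranked 1779 of 23890 autosomal H3K4me3 peaks in replicate 1 and 1786 of 22007 in replicate 2. H3K27me3 was unbroken over it in both replicates. The smallest distance between neighbouring peaks of the H3K27me3 lists was 1200 bp, so shorter breaks inside a peak could not be seen, but the H3K4me3 peak was several times longer than this. Of the autosomal H3K4me3 peaks of at least 8 kb, 474 in replicate 1 and 520 in replicate 2, 50 and 58 lay wholly inside H3K27me3 peaks of the same replicate number, or 10.5% and 11.2%. Wide H3K4me3 peaks within H3K27me3 thus occurred elsewhere too. The lists cannot show whether both marks were on the same chromosome copies or in the same cells.

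The last region lay across the high edge and had the highest score and, in replicate 1, the largest width of the H3K4me3 peaks of the window. It spanned chr4:68936801-68946800 in replicate 1, with a width of 10 kb and a score of 1492, and chr4:68937001-68946800 in replicate 2, with 9.8 kb and 1396. It ranked 229 and 221 by score among autosomal H3K4me3 peaks, at or above 99.0% of each list. Per window it had 29.8 and 28.5, the highest values of the H3K4me3 peaks over the domain, and it was the only one of its regions above the autosomal median in both libraries. Its high end was at the same window in both libraries, while the high edge of the H3K27me3 domain differed by 5 kb. In replicate 1, H3K27me3 lay over 62% of the peak and the last H3K27me3 base was 2.4 kb short of its end. In replicate 2, H3K27me3 lay over 93.9% of it and ended 0.6 kb short. Along the high edge, H3K4me3 therefore reached past H3K27me3 in both replicates, and the amount of overlap differed between them. In the order of the later assembly, HOXA2 stands towards this end of the cluster. Without the peak across the edge, 67.8% of the H3K4me3 bases lay on the high side of the middle.

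Between these regions the peaks again had low scores. At chr4:68889401-68892600, replicate 1 had a pair of peaks with scores of 49 and 98, and replicate 2 had a single peak of score 122. A group at chr4:68905401-68913800 consisted of 3 peaks in replicate 1, with a highest score of 157, and 4 in replicate 2, with a highest score of 97. The region at chr4:68919001-68920600 had scores of 31 and 60, and that at chr4:68934801-68936000 had 51 and 75. Apart from the 3 peaks without a counterpart, the peaks of low score were listed in both libraries. Gaps between neighbouring H3K4me3 peaks inside the domain had medians of 2.5 kb and 1.8 kb in replicates 1 and 2, and the longest between 2 peaks were 6 kb and 5.8 kb, at chr4:68850401-68856400 and chr4:68870801-68876600. Read depth cannot be had from the lists, so a stretch without a peak is a stretch where none was listed.

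Beside the domain, H3K4me3 peaks were fewer, and several scored above those of the low side of the domain. On the low side, 8 H3K4me3 peaks were listed in each replicate, and 3 in each overlapped H3K27me3. On the high side there were 6 in replicate 1 and 5 in replicate 2, and none overlapped H3K27me3. On autosomes 24.7% and 24.9% of H3K4me3 peaks overlapped an H3K27me3 peak of the same replicate number. In the window outside the bases of either domain peak, H3K4me3 peaks covered 3.43% in replicate 1 and 3.68% in replicate 2, against 2.59% and 2.60% of the autosomes. H3K27me3 peaks covered 2.82% and 4.42% there, against 7.25% and 7.81% of the autosomes. Over the whole window the surroundings thus had more H3K4me3 and less H3K27me3 than the autosomes, but not at every distance or on each side. H3K27me3 covered 12.5% and 19.4% within 100 kb, where the second peak lies, and 4.83% and 7.84% on the low side of the window. H3K4me3 covered 2.53% of the high side in each library, slightly below the autosomal values.

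Nearest to the domain on the low side, H3K4me3 peaks sat inside the second H3K27me3 peak. In replicate 1 there were 3, at chr4:68799601-68802800 (score 304), chr4:68803201-68805200 (score 210) and chr4:68806601-68809200 (score 369), and in replicate 2 there were 2, at chr4:68799401-68805000 (score 440) and chr4:68806401-68810400 (score 401). All 5 were wholly under H3K27me3 and above the medians of their lists. The pair of shared regions they formed thus carried both marks in both replicates. On the high side, the first H3K4me3 peak outside, at chr4:68949201-68951200 in replicate 1 (score 105) and chr4:68948801-68951800 in replicate 2 (score 137), had no H3K27me3. It was followed by peaks of low score near 69019001 (scores 62 and 48) and at chr4:69050801-69052200 (scores 53 and 50).

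Farther out, 3 pairs of H3K4me3 peaks with high scores were found. The first, at chr4:68403801-68409000 in replicate 1 (score 820) and chr4:68403801-68409200 in replicate 2 (score 846), lay 418.4 kb and 408.6 kb from the domain, at or above 91.9% and 93.6% of autosomal peaks. In replicate 2 an H3K27me3 peak of score 183 began 0.8 kb before its end, and in replicate 1 none was listed there. The second lay at chr4:68472801-68476200 (score 512) and chr4:68473201-68476400 (score 513). The third lay on the high side, at chr4:69124201-69128000 (score 624) and chr4:69123601-69129200 (score 667), 183 kb and 177.4 kb from the domain. Between the first and the third, peaks of lower score were listed at chr4:68508401-68513200 (score 233 in replicate 1, and a pair of peaks of 49 and 121 in replicate 2) and near 68529601 (scores 38 and 98). Next to the third, at 69131401, another region had 212 and 210, and replicate 1 had a peak of score 40 between them. The remaining peaks were listed in 1 library each, at chr4:68565401-68566200 in replicate 1 (score 36) and chr4:68698401-68699800 in replicate 2 (score 44). No H3K27me3 was listed over any of them. Neither the second nor the third pair had H3K27me3 in either library. The scores of these 3 pairs, 512 to 846, lay within the range of the 4 regions of the domain that reached the median and were all below the peak across its edge. Per window the pairs had 23.8 to 32.8, so they were also above the autosomal median for their width. The order against the peak across the edge then turned for most of them. In replicate 1 the pairs had 31.5, 30.1 and 32.8 per window, against 29.8 for that peak. In replicate 2 the first and second had 31.3 and 32.1, against 28.5, and the third had less, at 23.8.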

How the data were processed

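CUT&RUN libraries for H3K4me3 and H3K27me3 were analysed from 4 deposited peak lists. The authors aligned trimmed reads to ARS-UCD1.2 with BWA (0.7.17-r1188), removed duplicates and low quality alignments with Picard and SAMtools (1.7), and called peaks per library with epic2 (0.0.41, listed as SICER in the submitters' processing notes) in 200 bp bins, with longer gaps allowed for H3K27me3. No control library is stated. The score of each peak is a deposited whole number of unnamed meaning, and read depth is unknown from the lists. Mark and replicate number came from the sample titles.

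Positions are those of whole 200 bp windows and count from 1. An overlap of at least 1 bp with the other replicate made a peak shared. Ranks were taken within each list over the 29 autosomes, with ties given the best rank. With 2 libraries per mark and a single domain, values are given per replicate without a test. Whether replicates were separate cultures is not stated by the labels, while the study gives 2 independent lines for its CUT&RUN. Wide domains were the overlaps of H3K27me3 peaks of at least 100 kb in both lists, whatever the length of the overlap. Named genes were those of the HOXA cluster and its neighbours in an ARS-UCD2.0 table, used for order alone. Unnamed models there and 1 HOXA gene are not reported here. The members, lists and comparisons were chosen with earlier results of these data known. Scripts ran in Python 3.11.15 with pandas 2.3.3, numpy 2.4.6 and matplotlib 3.10.9. The steps recovered all 7 planted quantities of a simulated domain, and overlap counts were the same from bedtools 2.31.1.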

Additional observations from a re-analysis of the deposited data

How the results depend on the processing

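No paired analysis was possible because positions and ranks of peaks come from no fit. Of 55 alternatives, 31 left the value within the spread between replicates, or the number of regions within 1.5 times. For the mean width and score ranks, leaving out a replicate could not pass this spread, since a mean of 2 values lies closer to each than their SD. The width without replicate 2 was the main value itself, since the replicate 1 peak lay within that of replicate 2. These alternatives therefore show no stability. Joining peaks less than 10 kb apart, leaving out the outer 10 kb or the peaks across the high edge, the coverage beside other wide domains and the limits on which overlaps count as wide were chosen after seeing the data. Wide domains of at least 150 kb could not be compared, since the HOXA domain was narrower. Scores grow with width: per window, the higher median score of H3K4me3 peaks on the high side of the middle turned in replicate 2 (9 against 10.3 on the low side). Depth is unknown, which limits what a missing peak means.

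The width of 113.8 kb common to both replicates was 128.4 kb with the bases of either replicate and 151.6 kb with peaks less than 10 kb apart joined, and ranged from 113.8 to 128.4 kb with a replicate left out. The mean width rank of 73 was 107 with chromosome X, 107.5 over all sequences and 228.5 with peaks less than 5 kb apart joined, and 61 to 85 with a replicate left out. The mean score rank of 33.5 was 146 by score per window and 9 by score per window among peaks of at least 100 kb, and 27 to 40 with a replicate left out. When peaks below the median score were left out, the 17 H3K4me3 regions became 4, the covered share of 35.3% became 16.3% and the share of H3K4me3 bases on the high side of the middle rose from 71.1% to 100%. Covered shares were 54.3% with peaks of either replicate and 41.5% to 46.6% with a replicate left out. By region midpoints 47.1% lay on the high side, which turns its direction, and without the peak across the edge 67.8% of bases did. The first rank in H3K4me3 coverage became 2 with peaks of at least 50 kb. The lowest rank in H3K27me3 beside the domain became 5 within 100 kb. Neither rank changed with overlaps of at least 100 kb alone or with overlaps that share no peak. In the window outside the bases of either domain peak, H3K27me3 of both libraries covered 2.54%, with 11.8% within 100 kb of these bases (14.6% when measured from the bases common to both peaks) and 2.82% to 4.42% with a replicate left out. H3K4me3 of both libraries covered 2.95% of the same bases, 5.9% within 100 kb, 3.16% within 500 kb and 3.43% to 3.68% with a replicate left out. In single replicates the width and the coverage beside the domain could not fall, since both libraries were no longer required. The covered share was taken over each replicate's own domain, and the cause of its rise was not tested.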
